A study of Mus musculus with 6 samples.

Results

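The kainate and delta glutamate receptor genes examined here were 8 genes picked by symbol from a table of 23067 genes: the kainate subunit genes Grik1, Grik2, Grik3, Grik4 and Grik5, the auxiliary protein genes Neto1 and Neto2, and the delta receptor gene Grid1. All 8 had a row in the table, and 7 had a mean of at least 1 FPKM (fragments per transcript length and sequencing depth, the unit of every level given here). Grik1 was below that limit. The samples were dorsal striatum of mice at postnatal day 21. The study compared 3 libraries from mice homozygous for the G2019S change of Lrrk2 (genotype Lrrk2G2019S/G2019S, called knock-in) with 3 from controls carrying the normal allele on both chromosomes (Lrrk2WT/WT, called wild type). G2019S is a kinase-activating change found in familial Parkinson's disease, and it is carried in the germline, so every cell of the animal has it. No treatment is given for either genotype. The labels do not state whether the 3 samples of a genotype were 3 different mice, and the p-values therefore reflect only how far these samples scatter, some of which may be technical.

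Kainate receptors are glutamate-gated cation channels built from 4 subunits. GluK1, GluK2 and GluK3, the products of Grik1 to Grik3, bind kainate with lower affinity and can form channels by themselves, whereas GluK4 and GluK5, from Grik4 and Grik5, bind it with higher affinity and need a partner of the first class. Neto1 and Neto2 are single-pass membrane proteins that join the receptor and slow its closing. Kainate receptors act on the receiving side of synapses and also on axon terminals, where they adjust transmitter release. GluD1, the product of Grid1, belongs to the same superfamily by sequence but works mainly as a synaptic adhesion receptor, binding secreted cerebellins that are held in turn by presynaptic neurexins.

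The 5 subunits share a pore loop, and in Grik1 and Grik2 a glutamine codon of that loop can be recoded to arginine by adenosine deamination of the RNA, which lowers calcium entry. The stretch is shown because it is where the low-affinity and high-affinity classes can be compared directly and where the editing enzymes described further down act. Each line gives 39 bases of coding strand, 5′ to 3′, read from GENCODE M21 transcripts on GRCm38, with the glutamine codon of the pore loop in capitals.
Grik1: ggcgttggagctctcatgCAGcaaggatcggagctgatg
Grik2: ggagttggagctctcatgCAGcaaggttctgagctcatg
Grik3: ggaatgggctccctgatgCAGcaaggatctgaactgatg
Grik4: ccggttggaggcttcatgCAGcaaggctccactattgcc
Grik5: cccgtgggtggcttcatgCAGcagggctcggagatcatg

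The glutamine codon is CAG in the annotated transcript of all 5 genes. Of the 39 bases, 35 in Grik1, 30 in Grik3, 27 in Grik5 and 23 in Grik4 were the same as in Grik2. The codon is exonic in each gene and lies at chr16:87940542-87940544 in Grik1, chr10:49244329-49244331 in Grik2, chr4:125691207-125691209 in Grik3, chr9:42547623-42547625 in Grik4 and chr7:25022497-25022499 in Grik5. Grik3 is on the plus strand and the other 4 are on the minus strand. In Grik1, Grik2 and Grik3 the 39 bases cross an exon junction, and in Grik4 and Grik5 they lie within 1 exon. The table holds gene levels only, so the share of edited transcripts was not measured.

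Read counts per library are not part of the table, and FPKM summed to between 314146 and 335508 per library. All 12 markers listed for striatal projection neurons were measured, and their sum ranged from 2813 to 2940 FPKM over wild-type libraries and from 2804 to 3107 FPKM over knock-in libraries. Xist, expressed from the inactive X chromosome of females, stood at 27.2 to 39.3 FPKM in all 6 libraries, although the titles give male animals. Knock-in replicate 3 stood apart. It lay outside the range of the other 5 libraries for 49.7% of the 14156 genes tested, against 25.4% to 41.7% for each of the others. Cortical marker levels also differed between libraries. Slc17a7, which loads glutamate into vesicles of cortical projection neurons, reached 29.9 FPKM in knock-in replicate 1 and 25.2 FPKM in knock-in replicate 2. Wild type replicate 1 followed with 11.0 FPKM, and the 3 remaining libraries had 2.73 to 3.55 FPKM.

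On the FPKM scale, which allows genes to be compared per length, the order of mean levels over the 6 libraries ran from Grik5 to Grik1. Grik5 averaged 53.7 ± 2.76 FPKM (SD, n = 6), above 94.6% of tested genes. Neto1 averaged 29.0 ± 2.82 FPKM, Neto2 17.5 ± 3.01 FPKM and Grid1 13.6 ± 0.682 FPKM. Grik2 and Grik3 followed at 10.9 ± 1.30 and 10.7 ± 0.634 FPKM, then Grik4 at 1.88 ± 0.268 FPKM and Grik1 at 0.797 ± 0.122 FPKM. The ranges of Grid1 and Grik2 overlapped, though Grid1 was the higher in all 6 libraries. Grik2 and Grik3 could not be ordered, since Grik2 was the higher in 2 libraries and Grik3 in 4. The ranges of the other neighbours did not overlap.

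**Figure D1:**
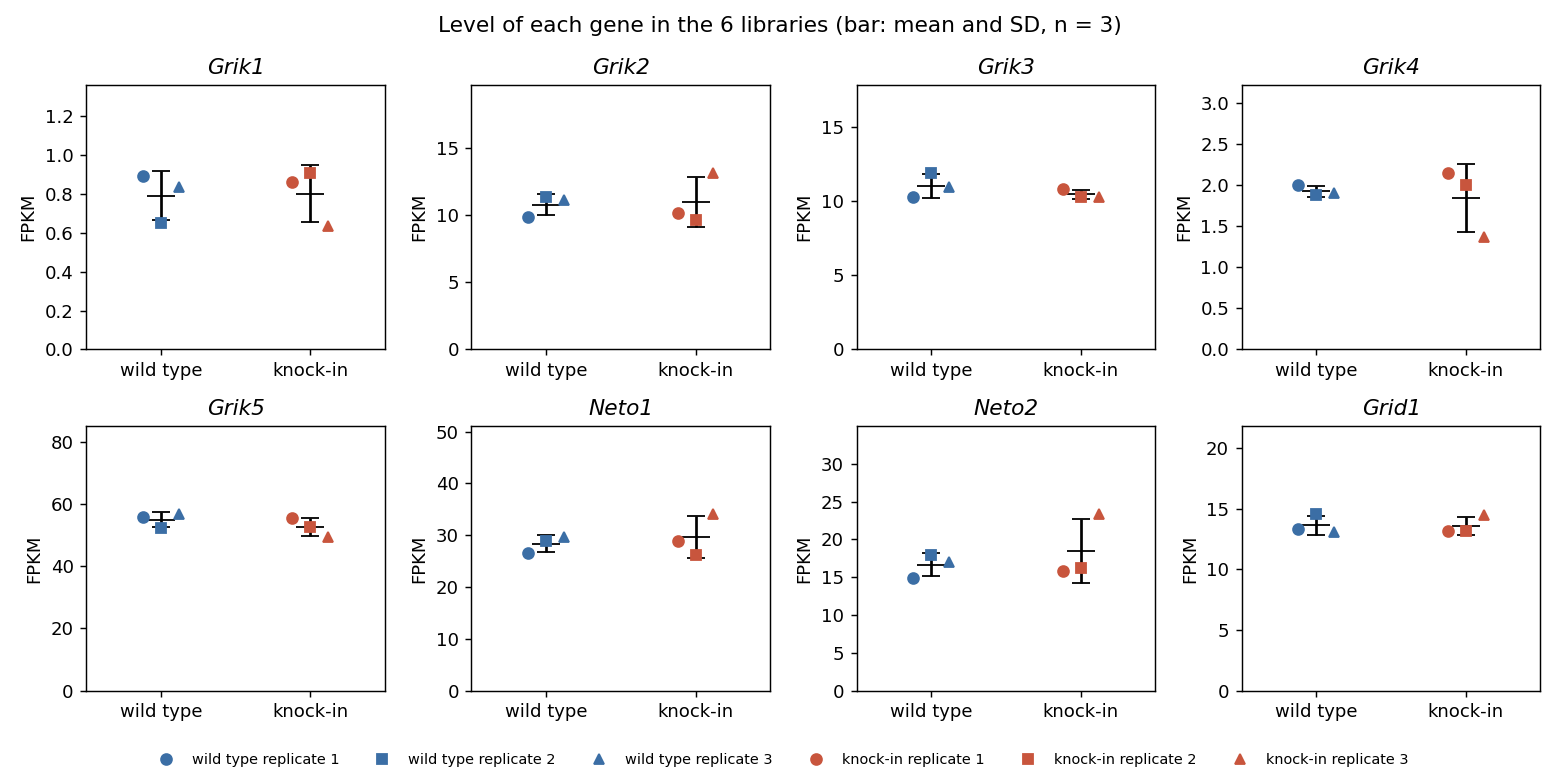
FPKM of each of the 8 genes (y axes, starting at 0) by genotype, with 1 symbol per library (circle, square and triangle for replicates 1, 2 and 3) and bars for the mean and SD of 3 libraries. The genotypes overlap in every panel, and knock-in replicate 3 is the highest library for Grik2, Neto1 and Neto2 and the lowest for Grik1, Grik3, Grik4 and Grik5.

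Among the low-affinity subunits, Grik2 (ENSMUSG00000056073, chr10:49094833-49788766) encodes GluK2, a widely used kainate subunit of forebrain neurons. Wild type replicates 1 to 3 gave 9.89, 11.4 and 11.2 FPKM, and the knock-in replicates, in the same order, 10.2, 9.67 and 13.1 FPKM. Knock-in replicate 3 was the highest library and knock-in replicate 2 the lowest, so the wild-type values lay inside the knock-in range. The log2 difference, knock-in minus wild type on the log2(FPKM + 1) scale, was 0.014 (SE 0.11, adjusted p = 0.997 in limma). The 95% interval of the fold ran from 0.840 to 1.21. This fold, here and below, is a ratio of FPKM + 1. For low genes such as Grik4 its interval is narrower than that of a ratio of FPKM would be. In bulk tissue, here and for every gene that follows, fewer cells of a type and less RNA per cell cannot be told apart.

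Grik3 (ENSMUSG00000001985, chr4:125490700-125714173) encodes GluK3, a subunit that needs high glutamate concentrations to open and is known from presynaptic sites. The wild-type libraries gave 10.3, 11.9 and 10.9 FPKM, the knock-in libraries 10.8, 10.3 and 10.3 FPKM. The knock-in libraries were close together and overlapped the lower part of the wild-type range. Its log2 difference was -0.07 (SE 0.07, adjusted p = 0.997 in limma), and the interval of the fold ran from 0.855 to 1.06. Grik1 (ENSMUSG00000022935, chr16:87895900-88290265), which encodes GluK1, had wild-type levels of 0.891, 0.651 and 0.835 FPKM and knock-in levels of 0.864, 0.908 and 0.636 FPKM. Wild type replicate 2 and knock-in replicate 3 were the 2 low libraries, 1 in each genotype. In the fit without a filter on low levels, the only one that held Grik1, the log2 difference was 0.0071 (SE 0.09, adjusted p = 0.999 in limma).

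Of the high-affinity subunits, Grik5 (ENSMUSG00000003378) lies at chr7:25009849-25072346 of GRCm38 and encodes GluK5, a common partner in native forebrain kainate receptors. Its wild-type levels were 55.9, 52.1 and 56.6 FPKM, and its knock-in levels 55.5, 52.7 and 49.5 FPKM. Its spread was small, with the highest library at 1.14 times the lowest, and 2 of the 3 knock-in libraries lay within the wild-type range. The log2 difference was -0.06 (SE 0.07, adjusted p = 0.997 in limma), and the interval of the fold ran from 0.859 to 1.07.

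Grik4 (ENSMUSG00000032017, chr9:42518135-42944493) encodes GluK4, the scarcer high-affinity subunit, known best from hippocampal mossy fibre synapses. Its wild-type levels were 2.00, 1.88 and 1.90 FPKM, and its knock-in levels 2.15, 2.00 and 1.37 FPKM. Knock-in replicate 1 was the highest of the 6 libraries and knock-in replicate 3 the lowest, so the knock-in libraries spanned the wild-type range on both sides. The log2 difference was -0.05 (SE 0.11, adjusted p = 0.997 in limma), and the interval of the fold ran from 0.806 to 1.15. Its exons share 59 bases with Gm24420 on the same strand, so a small part of its reads could be assigned to either gene.

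Both auxiliary protein genes were highest in knock-in replicate 3. Neto2 (ENSMUSG00000036902, chr8:85636588-85700924) gave 15.0, 18.0 and 17.0 FPKM in the wild-type libraries and 15.8, 16.2 and 23.3 FPKM in the knock-in libraries. Knock-in replicates 1 and 2 lay within the wild-type range and knock-in replicate 3 above it. The log2 difference of 0.12 (SE 0.15, adjusted p = 0.997 in limma) left an interval of the fold from 0.852 to 1.39. On the log2(FPKM + 1) scale this was the widest of the 8 genes. Neto1 gave 26.6, 28.9 and 29.6 FPKM in the wild-type libraries and 28.8, 26.1 and 34.0 FPKM in the knock-in libraries, again with knock-in replicate 3 above all others. Its log2 difference was 0.06 (SE 0.10, adjusted p = 0.997 in limma), and the interval of the fold ran from 0.885 to 1.22. Without knock-in replicate 3 both differences turned negative, to -0.050 for Neto2 and -0.044 for Neto1. That of Grik2 turned to -0.11 and that of Grik4 to 0.07 without the same library.

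Grid1 was the steadiest of the 8 genes over the libraries, with a coefficient of variation of 5.00%. The wild-type libraries gave 13.3, 14.5 and 13.1 FPKM, the knock-in libraries 13.2, 13.2 and 14.5 FPKM. Wild type replicate 2 and knock-in replicate 3 were the high libraries, 1 in each genotype, and the groups overlapped. The log2 difference was -0.0044 (SE 0.07, adjusted p = 0.997 in limma), and the interval of the fold ran from 0.895 to 1.11. Grid1 lies at chr14:34820108-35583379 of GRCm38, with 91 of its exon bases also annotated to Gm27617 on that strand.

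**Figure D2:**
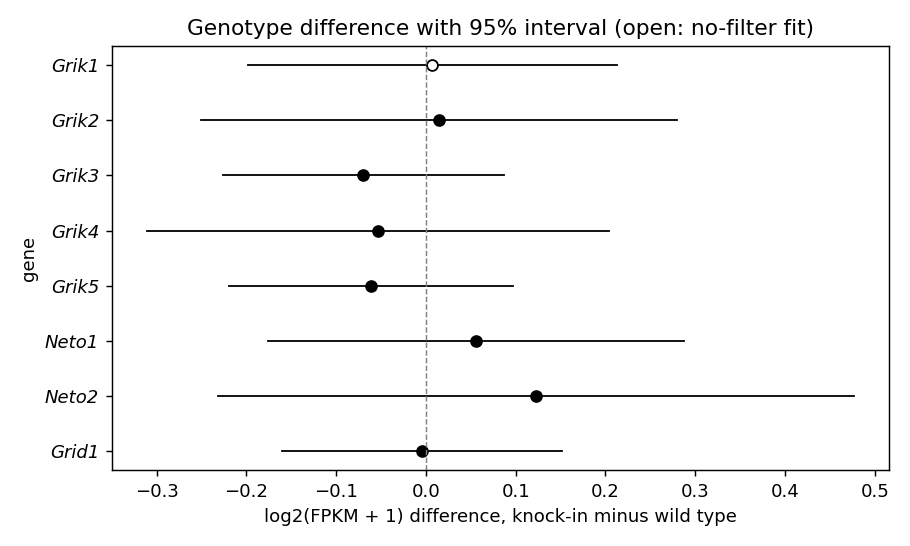
Difference in log2(FPKM + 1), knock-in minus wild type, for each of the 8 genes, with its 95% interval from limma (3 libraries a genotype). The open symbol marks Grik1, taken from the fit without a filter, and all 8 intervals include 0.

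Counted together, 0 of the 7 tested genes were called at an adjusted p under 0.05 in limma, against 0.0212% of all genes tested (3 of 14156). At an unadjusted p under 0.05 the count was 0 of 7 as well, against 4.27% of all genes. The genotypes overlapped for all 8 genes, where 9.51% of tested genes had groups that did not overlap. Of the 7 genes, 3 were higher and 4 lower in knock-in, with a median log2 difference of -0.0044, and the median over all genes tested was -0.014. On the log2(FPKM + 1) scale the interval of the fold was narrowest for Grid1, from 0.895 to 1.11. It was widest for Neto2, from 0.852 to 1.39. That scale narrows the intervals of low genes, so this order need not hold for FPKM itself.

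The make-up of the kainate pool was next compared per library, as a description with no test. The summed level of Grik1 to Grik5 was 78.9, 77.9 and 81.5 FPKM in wild type and 79.5, 75.6 and 74.9 FPKM in knock-in, a ratio of group means of 0.965. On the FPKM as deposited, the difference of -2.77 FPKM exceeded the SD of either genotype (1.85 and 2.48 FPKM). Median-of-ratios scaling brought the ratio from 0.965 to 0.979, so this excess over the SDs is stated for the deposited scale only. The ranges overlapped through knock-in replicate 1. Without that library the ratio was 0.947, the lowest of the leave-out values, and both remaining knock-in sums lay below all 3 wild-type sums. Leaving out any other library gave 0.956 to 0.978, and median-of-ratios scaling of all libraries gave 0.979. Grik5 made up 66.1% to 70.8% of that sum in every library, Grik2 12.5% to 17.6%, Grik3 13.0% to 15.3%, Grik4 1.83% to 2.70% and Grik1 0.836% to 1.20%. The high-affinity genes Grik4 and Grik5 together took 71.5% ± 2.04 of the sum in wild type and 70.9% ± 2.63 in knock-in (SD, n = 3 each). The difference of -0.556 percentage points was smaller than either SD, and it turned positive without wild type replicate 1, at 0.363, and without knock-in replicate 3, at 0.962. Grik5 alone was at 2.12 to 2.77 times the summed level of Grik2 and Grik3. These are shares of transcript levels and say nothing of assembled receptors.

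Knock-in replicate 3 had a make-up of its own. Grik2 stood at 1.28 times Grik3 there and at 0.939 to 1.02 times Grik3 in the other 5 libraries. The summed level of Neto1 and Neto2 was 0.765 times that of the 5 subunits, against 0.526 to 0.603 times elsewhere. The ratio of Neto1 to Neto2 was 1.46 in that library and 1.61 to 1.83 in the others.

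**Figure D3:**
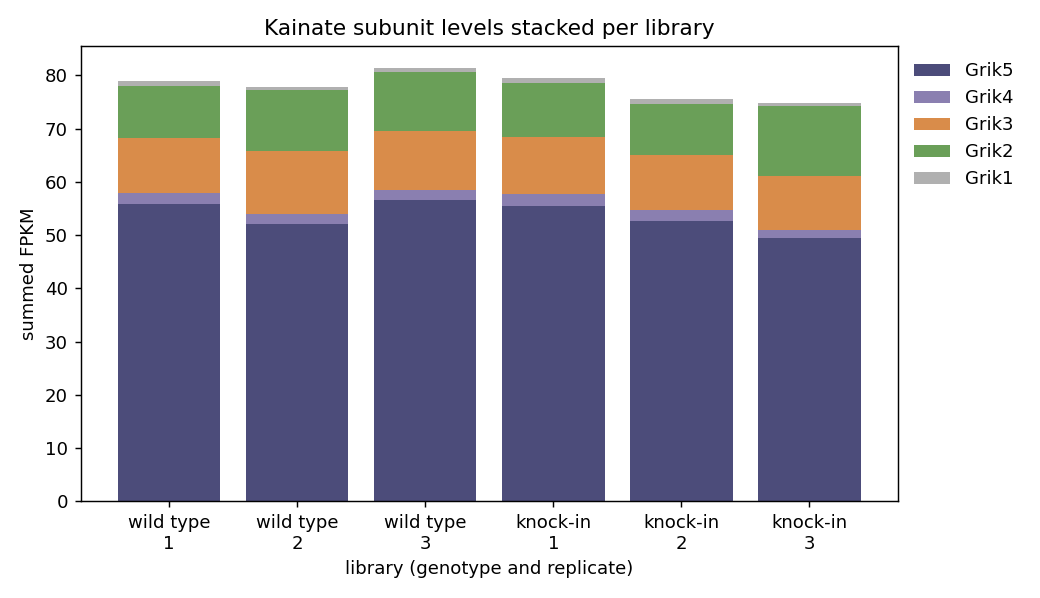
Summed FPKM of Grik1 to Grik5 (y axis, starting at 0) stacked by subunit in each of the 6 libraries. Grik5 fills 66.1% to 70.8% of each bar, and the Grik2 part is thickest in knock-in replicate 3, at 17.6%.

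Beside the other ionotropic families, the kainate genes took 28.7% to 30.1% of the summed AMPA, NMDA and kainate subunit FPKM in wild type and 27.0% to 29.2% in knock-in. The sum over the 4 AMPA genes ranged from 123 to 127 FPKM in wild-type and from 121 to 136 FPKM in knock-in libraries, and that over the 7 NMDA genes from 62.9 to 69.0 and from 63.5 to 68.8 FPKM. Grik5 at 53.7 FPKM stood below Gria1, the most abundant AMPA subunit gene, at 72.5 to 78.2 FPKM, and above Grin1, the shared NMDA subunit gene, at 30.7 to 33.9 FPKM. Of the tested AMPA and NMDA genes, 0 of 4 and 0 of 6 were called in limma, and 0 of each had an unadjusted p under 0.05.

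The position of knock-in replicate 3 was then followed through the members, a step chosen after the values were seen. Of the 7 tested genes, 6 lay outside the range of the other 5 libraries there, against 49.7% of all tested genes. Neto2 was at 1.42 times the mean of the other 5 libraries, Grik2 at 1.26 times and Neto1 at 1.21 times. Grik4 was at 0.691 times, Grik5 at 0.907 times and Grik3 at 0.947 times, the last by a margin of 10.25 against 10.27 FPKM in the next library. Grid1, at 1.07 times, was the exception. Each of the other 5 libraries was outside the range of the rest for 1 or 2 of the 7 genes.

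Markers of other cells stood apart in the same library. The 10 markers of myelinating oligodendrocytes summed to 2604 FPKM in knock-in replicate 3, against 3056 and 3225 FPKM in the other knock-in libraries and 3215 to 3663 FPKM in wild type, and all 10 were lower on average in knock-in. The 10 oligodendrocyte precursor markers summed to 168 FPKM there, against 218 and 234 FPKM in knock-in and 220 to 245 FPKM in wild type. The 12 projection neuron markers had their highest sum there, 3107 FPKM, and the 10 astrocyte markers their lowest, 556 FPKM against 596 to 633 FPKM elsewhere. Single markers did not all follow the sums. Ppp1r1b was at 774 FPKM there and 835 FPKM in wild type replicate 1, and Slc1a2 was lowest in knock-in replicate 2. None of these 4 lists had a marker at or near 0. The endothelial and microglia sums were also lowest there, at 84.1 and 276 FPKM. The cortical, interneuron and ependymal sums were not. The part of cell make-up in the levels of Neto2, Grik2, Neto1 and Grik4 was not tested.

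Levels of several members also went with the cortical markers of a library. The 11 measured of 12 listed cortical markers had a sum of 50.7 to 68.8 FPKM over wild-type libraries and of 53.3 to 104 FPKM over knock-in libraries, with Slc17a7 highest in knock-in replicates 1 and 2 and next in wild type replicate 1. Cux2, Fezf2, Rorb and Lamp5 of the list, named after their values were seen, did not follow that order. Grik2 was at 9.67 to 10.2 FPKM in those 3 libraries and at 11.2 to 13.1 FPKM in the 3 with low cortical markers. Neto2 was at 15.0 to 16.2 FPKM in the former and 17.0 to 23.3 FPKM in the latter, and Grik4 at 2.00 to 2.15 and 1.37 to 1.90 FPKM. Neto1 was at 26.1 to 28.8 FPKM and 28.9 to 34.0 FPKM, with the nearest libraries at 28.85 and 28.95 FPKM. Grik1 was at 0.864 to 0.908 FPKM in the former and 0.636 to 0.835 FPKM in the latter. For Grik3, Grik5 and Grid1 the same libraries overlapped. The share of all tested genes that separate between these libraries was not computed, so this split has no background beside it. The part of cortical tissue in these levels was not tested beyond the fit that follows.

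The cortical level, the mean log2(FPKM + 1) of the 7 tested cortical markers, Cux2, Rorb and Lamp5 among them, was entered beside genotype in the limma fit. Its coefficient is the change in the log2 level of a gene for each log2 unit of the cortical level. It was -0.41 (SE 0.06, adjusted p = 0.167) for Neto2, -0.30 (SE 0.06, adjusted p = 0.237) for Grik2, -0.23 (SE 0.07, adjusted p = 0.292) for Neto1 and 0.28 (SE 0.07, adjusted p = 0.254) for Grik4. The count was 4 of 7 at an unadjusted p under 0.05, against 14.1% of all genes, and 0 of 7 at an adjusted p under 0.05, against 0.0212%. In the same fit the genotype differences were 0.38 for Neto2, 0.20 for Grik2, 0.20 for Neto1 and -0.23 for Grik4, again 4 of 7 at an unadjusted p under 0.05, against 11.0% of all genes. Their adjusted p-values lay between 0.307 and 0.422, so none was called. Without knock-in replicate 3, the only knock-in library with low cortical markers, both counts were 0 of 7. The coefficients kept their signs there with wider errors, at -0.36 (SE 0.17) for Neto2, -0.25 (SE 0.18) for Grik2, -0.16 (SE 0.20) for Neto1 and 0.13 (SE 0.18) for Grik4. The genotype differences of that fit were 0.33 (SE 0.20) for Neto2, 0.15 (SE 0.20) for Grik2, 0.13 (SE 0.22) for Neto1 and -0.06 (SE 0.20) for Grik4. The count for genotype was 2, 3 and 1 of 7 without wild type replicates 1, 2 and 3. It stayed at 4 of 7 when either of the other knock-in libraries, replicate 1 or replicate 2, was dropped. The count for the cortical level was 4 of 7 whichever library other than knock-in replicate 3 was dropped. No share of all genes is given beside these leave-out counts, so they have no background.

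**Figure D4:**
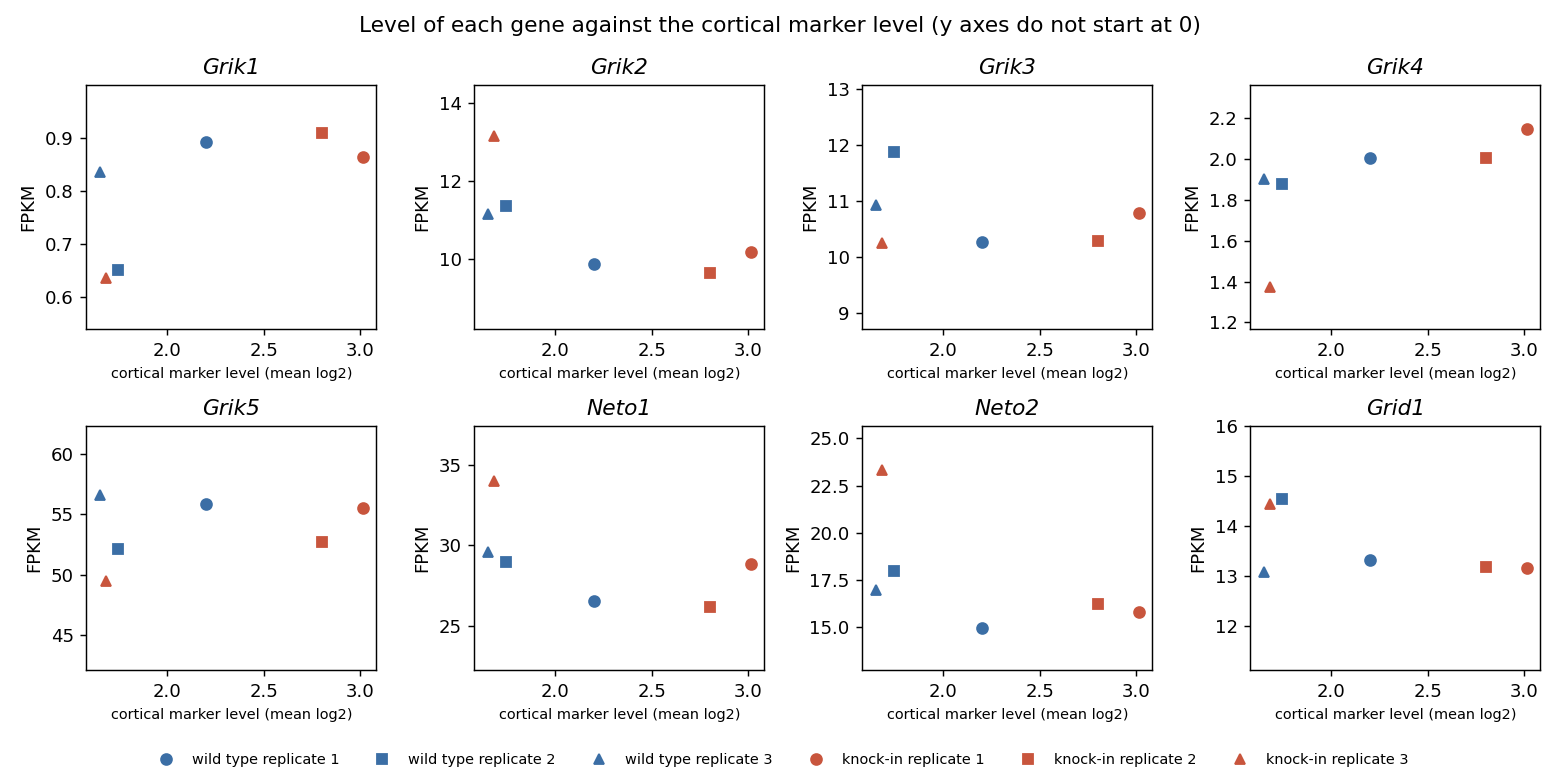
FPKM of each of the 8 genes (y axes, not starting at 0) against the cortical marker level of the library, the mean log2(FPKM + 1) of 7 cortical markers (x axes), with 1 symbol per library. Grik2, Neto1 and Neto2 are higher and Grik4 lower in the 3 libraries at the left, and the triangle of knock-in replicate 3 lies farthest out.

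Genes that act on these receptors were taken from 4 lists of 46 genes in all. Of these, 45 were in the table and 40 were tested, with 19 higher and 21 lower in knock-in and a median log2 difference of -0.0057. In limma 0 of the 40 were called, and 3 had an unadjusted p under 0.05, against 4.27% of all genes tested.

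The editing genes were the first of these lists. Adarb1, the deaminase known for recoding the pore-loop glutamine of Grik2 shown above, had wild-type levels of 8.87, 9.30 and 9.04 FPKM and knock-in levels of 11.7, 9.99 and 10.1 FPKM. The 3 knock-in libraries lay above the 3 wild-type ones, with knock-in replicate 1 farthest. The log2 difference of 0.20 (SE 0.07) did not pass the test (adjusted p = 0.997 in limma). Adar, the broadly acting deaminase, stood at 14.3 ± 0.667 and 13.8 ± 0.648 FPKM in the same order of genotypes (SD, n = 3 each).

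Among 18 tested ligand and trafficking genes of kainate receptors, 6 were higher and 12 lower, with 0 called. The synaptic ligands C1ql2 and C1ql3, which recruit kainate receptors at mossy fibre synapses, had low transcript levels. C1ql3 reached 2.47 FPKM in knock-in replicate 1 and did not exceed 1.11 FPKM elsewhere, and C1ql2 ranged from 0.325 to 0.627 FPKM. Dlg4, which encodes the scaffold PSD-95, averaged 185 ± 1.20 FPKM in the wild-type and 187 ± 6.82 FPKM in the knock-in libraries (SD, n = 3 each). Cdh2, the adhesion protein N-cadherin, ranged from 6.90 to 7.18 FPKM over the wild-type libraries and from 6.16 to 6.41 FPKM over the knock-in ones. These groups did not overlap, but the log2 difference of -0.13 was not called (adjusted p = 0.997 in limma). Its partner Ctnnb1, beta-catenin, stood at 49.1 ± 2.70 and 44.9 ± 2.12 FPKM, and Nsf, an ATPase of vesicle fusion, at 45.5 ± 1.95 and 47.5 ± 2.03 FPKM.

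Of 11 tested genes for phosphorylation and SUMO modification, which controls removal of GluK2 from the surface, 6 were higher and 5 lower and 0 were called. Senp1, a protease that removes SUMO, had wild-type levels of 1.46, 1.49 and 1.64 FPKM and knock-in levels of 1.29, 1.13 and 0.993 FPKM. All 3 knock-in libraries were below the wild-type ones, with a log2 difference of -0.25 (SE 0.08) that did not pass the test (adjusted p = 0.997 in limma). Camk2b, a calcium-dependent kinase subunit, averaged 142 ± 3.33 FPKM over the wild-type libraries and 130 ± 7.55 FPKM over the knock-in ones (SD, n = 3 each).

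The delta receptor list held 12 genes, of which 9 were tested, 6 higher and 3 lower with 0 called. Transcripts of the cerebellins that GluD1 binds were scarce in this tissue, and the secreted proteins were not measured. Cbln2 gave 0.960, 0.405 and 0.807 FPKM in the wild-type libraries and 1.89, 1.42 and 0.825 FPKM in the knock-in libraries, and it was highest in the 2 knock-in libraries with the highest cortical markers. Cbln1 was at 0.292 to 1.11 FPKM and Cbln4 at 0.450 to 0.733 FPKM, and neither was tested. The neurexin gene Nrxn2 stood higher, at 13.1 ± 0.158 and 11.9 ± 0.956 FPKM (wild type first; SD, n = 3 each). C1ql1, a C1q-like gene of this list, was also listed as a marker of oligodendrocyte precursors. It ranged from 6.55 to 7.82 FPKM over the wild-type libraries and from 4.97 to 6.44 FPKM over the knock-in ones. Its log2 difference of -0.24 was not called (adjusted p = 0.997 in limma), and it was lowest in knock-in replicate 3, where the precursor markers were lowest too.

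**Figure D5:**
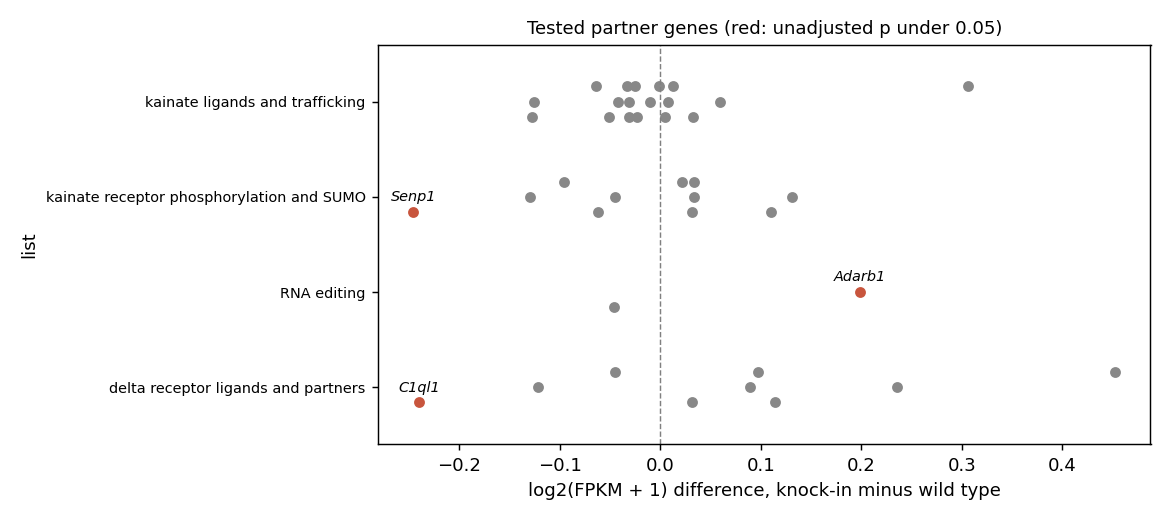
Difference in log2(FPKM + 1), knock-in minus wild type (x axis), of each tested partner gene by list (y axis), 1 point a gene with a small vertical offset for legibility. Adarb1, at 0.20, and Senp1 and C1ql1, at -0.25 and -0.24, are the 3 genes with an unadjusted p under 0.05, and 0 of 40 were called.

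Across the 6 libraries, the listed gene most like each member was the one with the highest Pearson r of log2(FPKM + 1) among 135 tested genes of the lists, a choice that favours high values. Grik2 was most like Cul3, a ubiquitin ligase scaffold (r = 0.992), and Neto2 most like Prkca, protein kinase C alpha (r = 0.990). Both Cul3 and Prkca were highest in knock-in replicate 3, at 17.4 and 11.8 FPKM. Grik1 was most like Sst, the somatostatin of a striatal interneuron class (r = 0.954). The others were Neto1 with P2ry12 (r = 0.977), Grik3 with Flt1 (r = 0.966), Grik5 with Calb2 (r = 0.958), Grik4 with Trem2 (r = 0.936) and Grid1 with Kif17 (r = 0.912). All points share the same 6 libraries, so each value describes these libraries only.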

How the data were processed

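RNA of dorsal striatum was sequenced in 3 knock-in and 3 wild-type samples. The values are FPKM, made and deposited by the authors with 1 column for each library, per the file headers. Per the submitters' processing notes the tools included HISAT2, StringTie, FastQC and SAMtools, with no version or role stated. The build and annotation were not given in the sources used here. Columns were matched to samples by the codes in the labels. Depth is unknown: a search of low values for whole-read steps put at most 44.7% within 0.1 of a whole multiple, so counts were not recovered.

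The fit of limma 3.58.1 (R 4.3.3) took in all 14156 genes whose mean reached 1 FPKM, on log2(FPKM + 1), which understates changes of low genes, with trended and robust variance, two-sided, and Benjamini-Hochberg adjustment. The script was tested on simulated data. Members and lists were chosen with earlier results of these data known. Genes named were the members, in each partner list the called genes or up to 4 with the smallest p, genes needed to describe a role, AMPA and NMDA subunits, Slc17a7, Xist and the listed gene most like each member. A few genes that this rule names are not reported here. Positions and coding sequence came from GENCODE M21 on GRCm38, which may differ from the authors' annotation. A symbol on 2 rows (Dlg2) was read from the identifier that GENCODE M21 gives it. Adjusted p-values are from limma throughout. Alternatives were another pseudocount, filters, scalings, no moderation, a replicate block, a cortical covariate and leaving out each library. The coefficient of the cortical level and the fits with that covariate without each library were added after the data were seen.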

Additional observations from a re-analysis of the deposited data

How the results depend on the processing

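Over the 14 alternatives 0 members and 0 partner genes were called. The high-affinity share differed between genotypes by -1.65 to 0.962 percentage points, and the ratio of kainate sums was 0.947 to 0.978, over the values without 1 library each. Directions of members, all with small differences, turned in these cases. Without knock-in replicate 3 the log2 difference was -0.11 for Grik2, 0.071 for Grik4, -0.044 for Neto1 and -0.050 for Neto2. Without wild type replicate 1 that of Grik2 was -0.043. Grid1 turned to 0.0081 with quantile normalization, 0.015 with median-of-ratios scaling, 0.054 with the cortical covariate, and 0.039, 0.017 and 0.016 without wild type replicate 2, knock-in replicate 1 and knock-in replicate 2. Over the leave-out fits the log2 difference ranged from -0.11 to 0.094 for Grik2, from -0.13 to 0.071 for Grik4, from -0.044 to 0.14 for Neto1, from -0.050 to 0.22 for Neto2 and from -0.046 to 0.039 for Grid1. Grik3 and Grik5 had a negative difference in all 14 alternatives. The changed filters, no moderation and the replicate block leave this difference as it was by construction, so they do not check its direction. Among the other alternatives its size varied. Leaving out 1 library gave -0.12 (without wild type replicate 1) to -0.019 (without wild type replicate 2) for Grik3, and -0.10 (without knock-in replicate 1) to -0.019 (without knock-in replicate 3) for Grik5, which was at -0.12 with the cortical covariate. That of Grik5 was also at -0.098 without wild type replicate 2 and -0.038 without wild type replicate 3. Deviations of same-numbered libraries from their group means had correlations of -0.011, -0.07 and 0.19, against -0.18 to 0.21 for the other pairs. With group means of so few libraries this cannot settle whether the numbers pair them. With a replicate block the differences keep their size by construction (0.12 for Neto2, adjusted p = 0.998 in limma) and 0 members were called. The cause of these turns was not tested.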
